A study of Mus musculus with 12 samples.

Results

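Expression of 32 genes of cholesterol and fatty acid synthesis was examined in tumourspheres of 3 mouse mammary tumour cell lines treated with a Met inhibitor, an FGF receptor inhibitor or both. The genes were chosen by symbol from the table of raw gene counts and comprise 18 enzymes of the sterol pathway, 9 enzymes of fatty acid synthesis and desaturation, and 5 regulators or lipid transport genes. All 32 were present among the 55573 genes of the table, and all 32 were among the 13836 genes that passed the filter on low counts. The spindloid lines A1005, A1129 and A1471 each came from a mammary tumour of genotype MMTV-Metmt;Trp53fl/+;Cre, in which the mouse mammary tumour virus promoter drives an activated Met and a conditional allele of Trp53 is recombined by Cre. All groups, DMSO included, carry these alleles. Each line was grown as spheres in serum-free medium that contained insulin, EGF and basic FGF, and was exposed for 24 h to the vehicle DMSO, to the Met kinase inhibitor Crizotinib, to the FGF receptor kinase inhibitor PD173074 or to both inhibitors (the combination). Each treatment had 1 library from each of the 3 lines (n = 3), so the lines are the replicates and no line had a second library of the same treatment.

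Libraries held between 13031492 and 17750476 counts each, of which at least 99.85% fell on tested genes. Defining markers of other cell types were low. Of 6 adipocyte markers, 5 (Adipoq, Plin1, Cidec, Lep and Cfd) had under 10 counts in every library, and the 6 summed to 5.80 to 31.96 CPM (reads of the gene relative to all counted reads, scaled to a common library size) with DMSO and 1.74 to 10.6 CPM with the combination. With Crizotinib the adipocyte markers summed to 13.0 to 65.0 CPM. The 6 immune markers summed to 4.47 to 31.5 CPM with DMSO and 8.30 to 42.0 CPM with the combination. The lines differed in Ptprc, with 13.6, 0.132 and 0.138 CPM in A1005, A1129 and A1471 with DMSO. For Cd68 these values were 17.7, 4.21 and 5.18 CPM. The 4 endothelial markers summed to 0.276 to 0.859 CPM with DMSO and 0.877 to 3.02 CPM with the combination. The 5 luminal epithelial markers summed to 16.1 to 39.5 CPM with DMSO and 6.71 to 41.5 CPM with the combination, with Cldn7 and Esrp1 under 10 counts in every library. The 6 mesenchymal markers summed to 3462 to 5177 CPM with DMSO and 3549 to 9703 CPM with the combination, a sum held mostly by Vim, Fn1 and Sparc. Fn1 alone had 1235, 481 and 527 CPM in A1005, A1129 and A1471 with DMSO and 1529, 377 and 5093 CPM with the combination. Twist1, a mesenchymal transcription factor of that list, fell from 125 to 61.1 CPM in A1005, from 115 to 53.9 CPM in A1129 and from 100.3 to 44.5 CPM in A1471 with both inhibitors (log2 fold change -1.09 ± 0.15, edgeR adjusted p = 0.00156). Sparc of the same list went the other way, from 664 to 1792, 325 to 1140 and 183 to 1263 CPM (1.84 ± 0.62, edgeR adjusted p = 0.0765). Zeb1 was also higher in all 3 lines, from 56.8 to 60.5, 58.5 to 73.9 and 80.5 to 99.4 CPM. The share of counts on mitochondrial genes was 1.21% to 1.29% with DMSO and 1.93% to 2.52% with the combination, lowest in A1471 and highest in A1129 among the combination libraries, and its part in the results was not tested. In these bulk samples, less RNA of a gene per cell and fewer cells that express it cannot be told apart.

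Cells make cholesterol from acetyl-CoA through mevalonate, farnesyl diphosphate, squalene and lanosterol, and they make saturated fatty acids from the same acetyl-CoA through malonyl-CoA. Both branches are transcribed under the control of SREBP factors, which are held in the endoplasmic reticulum with SCAP and INSIG when sterols are plentiful and are released to the nucleus when sterols are scarce. SREBP-2 is best known for sterol genes and SREBP-1 for fatty acid genes. Growth factor signalling through PI3K and mTOR is known to raise SREBP activity, and many tumour cells grown without serum lipids rely on their own lipid synthesis.

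With DMSO, the fatty acid branch held the most abundant members. On a per-length scale (RPKM, CPM divided by the annotated exon length in kb), Scd2, a stearoyl-CoA desaturase, had the highest mean level, with 211 in A1005, 346 in A1129 and 329 in A1471. It was followed by Acly, which makes cytosolic acetyl-CoA from citrate, with RPKM of 117, 102 and 127. Fasn, the fatty acid synthase, had RPKM of 54.4, 129 and 138, and the desaturase Scd1 had 124, 81.7 and 96.9, in the same order of lines. Among sterol members the highest means were those of Hmgcs1, the HMG-CoA synthase that starts the mevalonate route, with RPKM of 85.2, 50.4 and 69.7, and of the squalene epoxidase Sqle, with 102, 44.2 and 51.1, and their ranges overlapped. The ranges of Acly, Fasn and Scd1 overlapped, so the order of those 3 is not resolved by the lines, whereas every Scd2 value lay above all of theirs. At the other end stood Tm7sf2, a sterol C14 reductase, with RPKM of 3.46, 4.42 and 2.59, and the acetyl-CoA synthetase Acss2 with 8.16, 1.89 and 1.75. The lines differed most in Acss2, for which the highest line was 4.67 times the lowest, and in the acetyl-CoA carboxylase Acaca, at 4.21 times.

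**Figure D1:**
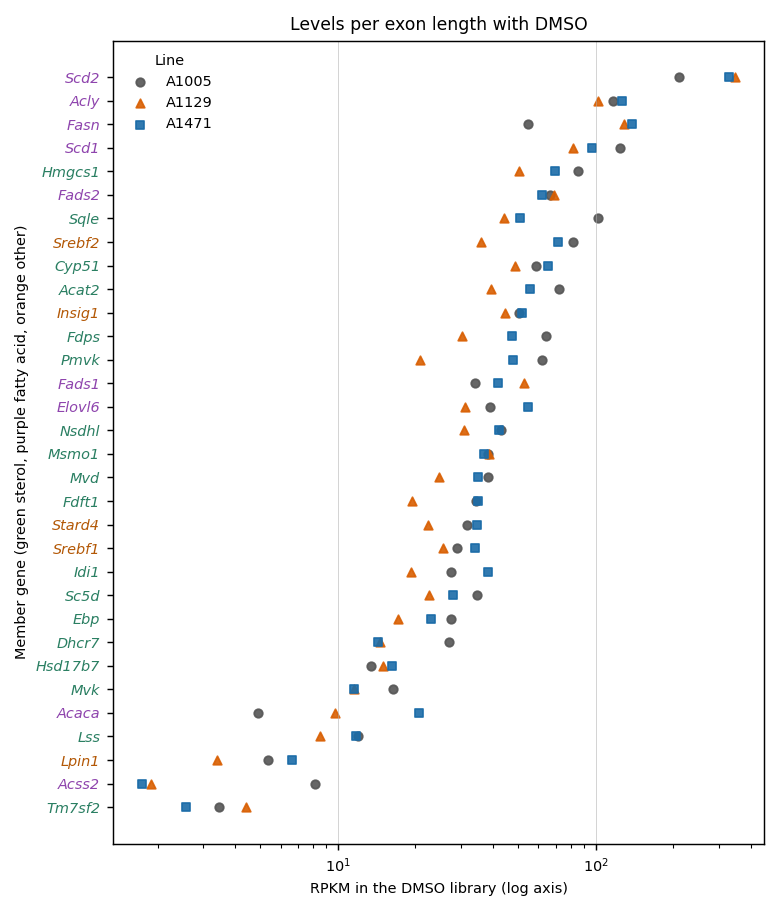
RPKM of each member in the DMSO library of each line, on a log axis, ordered by the mean of the 3 lines; circles are A1005, triangles A1129 and squares A1471. Scd2 lies at 211 to 346 RPKM, while Acss2 and Acaca spread most between the lines.

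Across the 3 lines together, the combination changed few members. In edgeR's quasi-likelihood test without pairing, 14.4% of all tested genes were called against DMSO at an adjusted p of 0.05, and 2 of the 32 members were called, the sterol isomerase Ebp upward and the fatty acid elongase Elovl6 downward. When cell line was entered as a block, 54.8% of all genes and 4 of 32 members were called, which added the isopentenyl diphosphate isomerase Idi1 (lower) and the delta-5 desaturase Fads1 (higher). The members' share was below that of all genes in both fits. The calls of the unpaired fit depended on single lines, with 1 member called without A1005 (Ebp; 14.9% of all genes), 0 without A1129 (2.35%) and 0 without A1471 (0.856%). Calls were thus also few over the whole table without A1129 or A1471. With the block, 4 members were called without A1005 (50.3% of all genes) and 3 without A1471 (36.8%), whereas without A1129 there were 16 (40.8% of all genes), of which Ebp was higher and the other 15 were lower. These 15 included Hmgcs1, Idi1, Fdps, Lss, Dhcr7, Fasn and Scd2.

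Ebp (ENSMUSG00000031168, chromosome X from 8185329 to 8193512 on the minus strand of mm10) encodes the isomerase that shifts a double bond late in the sterol pathway. It had 63.5, 39.5 and 53.3 CPM with DMSO in A1005, A1129 and A1471, 56.2, 33.4 and 46.3 CPM with Crizotinib, 81.3, 51.3 and 71.0 CPM with PD173074, and 121, 98.7 and 113 CPM with the combination. Every combination library lay above every library of the other treatments. Against DMSO its log2 fold change was 1.09 ± 0.25 (SE, n = 3; edgeR adjusted p = 0.0190). The adjusted p from edgeR was 1.75e-05 with the line as a block. Ebp was also the member that departed from the sum of both single inhibitor effects, by 0.94 ± 0.14 on the log2 scale with the block (edgeR adjusted p = 0.00222) and by 0.91 ± 0.35 without it (edgeR adjusted p = 0.436). In that comparison 0.918% of all genes were called without the block and 16.2% with it, and 0 and 1 of the 32 members. At an unadjusted p under 0.05, edgeR had 1 member without the block and 3 with it, beside 1250 and 4521 of 13836 tested genes. DESeq2 called 0 members, beside 3.46% of the genes it tested.

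Elovl6 (ENSMUSG00000041220, chromosome 3 from 129532355 to 129638495 on the plus strand of mm10) encodes the enzyme that lengthens palmitate to stearate. It had 250.2, 200.8 and 353 CPM with DMSO, 267, 217 and 348 CPM with Crizotinib, 218, 200.01 and 241 CPM with PD173074, and 154, 145 and 80.3 CPM with the combination, in the order A1005, A1129, A1471. All 3 combination values were below all values of the other treatments. The log2 fold change against DMSO was -1.08 ± 0.29 (SE, n = 3; edgeR adjusted p = 0.0358, and 0.00755 with the block). Without A1471 it was -0.58, and no unpaired fit that left out a line called it. Idi1, which isomerises the 5-carbon building blocks of the isoprenoids, had 96.2, 67.5 and 134 CPM with DMSO and 56.6, 63.1 and 30.3 CPM with the combination. The log2 fold change of Idi1 was -0.99 ± 0.37 (edgeR adjusted p = 0.103) without the block and -0.90 ± 0.32 (edgeR adjusted p = 0.0353) with it, and in A1129 the difference was only -0.10. Fads1, which introduces a double bond into polyunsaturated fatty acids, had 164, 253 and 202 CPM with DMSO and 184, 368 and 233 CPM with the combination. The ranges of Fads1 overlapped, and its log2 fold change was 0.31 ± 0.11 with the block (edgeR adjusted p = 0.0339) and 0.34 ± 0.29 without it (edgeR adjusted p = 0.497).

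**Figure D2:**
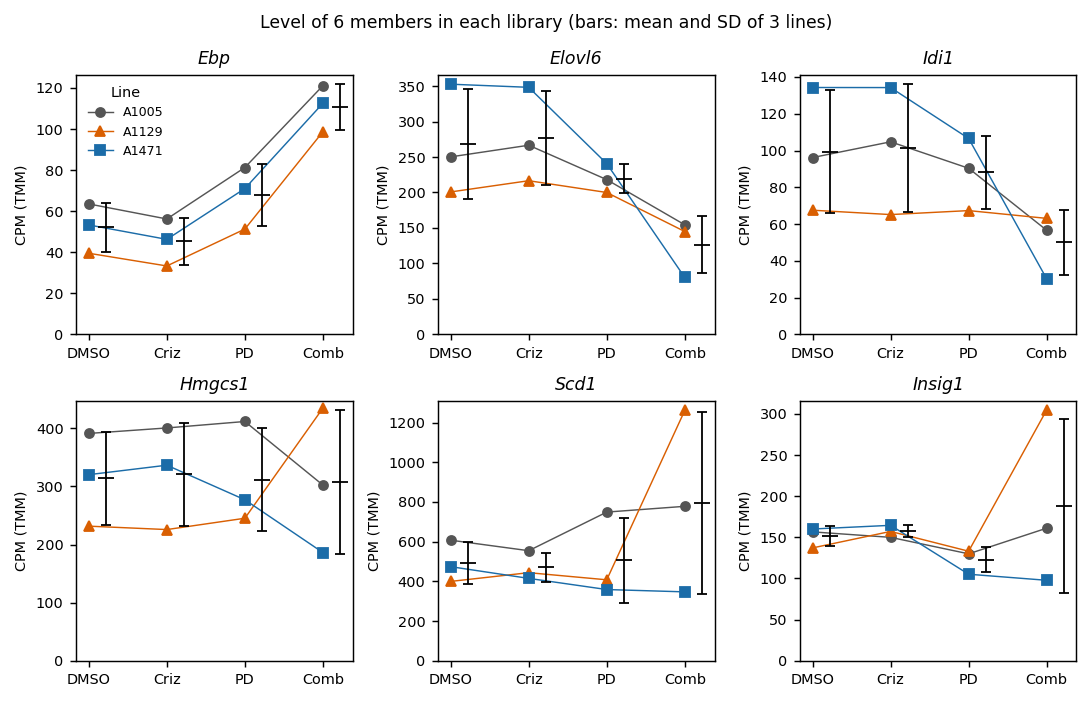
CPM of 6 members in each of the 12 libraries, by treatment (DMSO, Crizotinib, PD173074, combination) and line, with the mean and SD of the 3 lines as black bars beside the points. Ebp was higher and Elovl6 lower in all 3 lines with the combination, whereas Hmgcs1, Scd1 and Insig1 were higher in A1129 and lower in A1471.

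For most of the other members the lines moved in different directions. Relative to DMSO in their own line, 29 of 32 members were higher with the combination in A1129, 29 of 32 were lower in A1471, and 25 of 32 were lower in A1005. The median log2 change of the 32 members came to -0.24 (A1005), 0.46 (A1129) and -0.73 (A1471), while the medians of all tested genes were 0.02, 0 and 0.00 in the same order. Both directions at once, higher in A1129 and lower in A1471, were seen in 26 of 32 members (81.3%) and in 10.7% of all tested genes. The same direction in all 3 lines was seen in 5 of 32 members (Idi1, Ebp, Acaca, Elovl6 and Fads1) and in 66.7% of all genes. With DESeq2's size factors or total counts as the scaling, the same counts of 29, 29 and 26 members were obtained, and the number higher in A1005 was 7 with TMM or size factors and 8 with total counts.

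**Figure D3:**
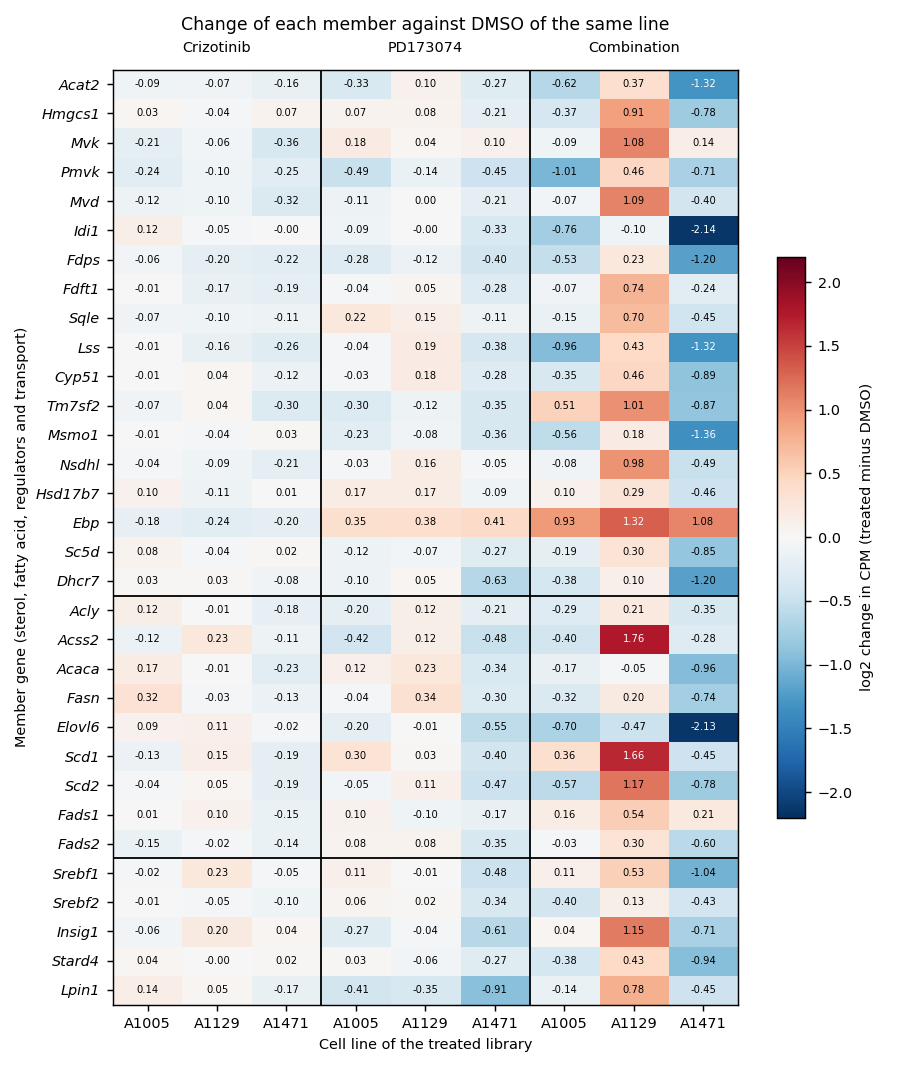
Log2 change in CPM of each member in each treated library, relative to DMSO in its own line, printed in the cells and coloured from blue (lower) to red (higher); rows are split into sterol, fatty acid and other members. The combination column of A1129 is mostly red and that of A1471 mostly blue, and the Crizotinib columns are pale.

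Whether the lines differed in their change with the combination was tested in an edgeR fit with terms for treatment, line and the change of each line with the combination. In it, a line's combination library is set against its DMSO, Crizotinib and PD173074 libraries together, not against DMSO alone. The differences between A1129 and A1471 given below for single members are from this fit. The fit was chosen after the changes by line were seen. It has no second library of a line and treatment, so the spread is taken from how the lines differ in their response to the single inhibitors, with 4 residual degrees of freedom. Of all tested genes, 17.2% were called for a difference between lines, and of the members 25 of 32, which were 17 of 18 sterol enzymes, 4 of 9 fatty acid enzymes and 4 of 5 regulators and transport genes. For A1129 against A1471 alone, 7.52% of all genes and 26 of 32 members were called, all 26 with the higher value in A1129. Without the Crizotinib libraries, 18 members and 2.37% of all genes were called, and without the PD173074 libraries, 31 members and 43.9% of all genes. Taken against DMSO alone, without the fit, the difference in log2 change between A1129 and A1471 had a median of 1.36 over the members. Its range was 0.24 to 2.11. For all tested genes the median was 0.00 and the middle 50% lay between -0.38 and 0.36.

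**Figure D4:**
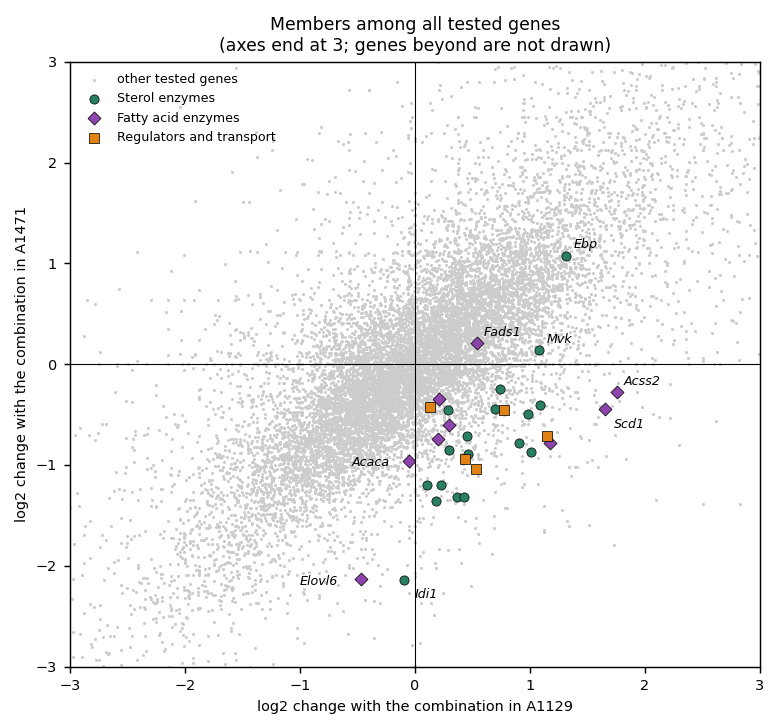
Log2 change with the combination against DMSO in A1129 (horizontal) and A1471 (vertical); grey points are other tested genes, circles sterol enzymes, diamonds fatty acid enzymes and squares regulators and transport genes. The grey cloud follows the diagonal, and 26 of 32 members lie in the lower right part, with Ebp, Fads1 and Mvk in the upper right.

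In the mevalonate steps, Hmgcs1 had 391 CPM in A1005, 232 in A1129 and 320.3 in A1471 with DMSO, and 302, 435 and 186 CPM with the combination. It was thus the highest in A1005 with DMSO and the highest in A1129 with both inhibitors. In the fit for line differences, its change in A1129 exceeded that in A1471 by 1.63 ± 0.16 on the log2 scale (SE, edgeR adjusted p = 0.00343). Against DMSO alone the gap was 1.69. Acat2, the cytosolic thiolase that supplies acetoacetyl-CoA, had 184, 100.4 and 141 CPM with DMSO and 119, 130 and 56.4 CPM with the combination. The mevalonate kinase Mvk had 43.8, 30.9 and 30.8 CPM with DMSO and 41.1, 65.4 and 34.0 CPM with the combination, so that its change was large in A1129 and small in the other lines. The diphosphomevalonate decarboxylase Mvd had 70.8, 45.9 and 65.1 CPM with DMSO and 67.7, 97.7 and 49.3 CPM with both inhibitors. It was higher in A1129 and, unlike Mvk, lower in A1471. Pmvk, the phosphomevalonate kinase, was lower in A1005 (106 to 52.6 CPM) and A1471 (81.8 to 49.8 CPM) and higher in A1129 (35.8 to 49.1 CPM), which brought the 3 lines to nearly the same level. Mvk compared with Crizotinib alone was called with the block, 0.63 ± 0.22 higher on the log2 scale (edgeR adjusted p = 0.0321).

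In the steps from farnesyl diphosphate to lanosterol, the prenyl synthase Fdps had 269, 127 and 199.7 CPM with DMSO and 186, 149 and 86.7 CPM with the combination. Its exons share 26.7% of their length with Gm43738, an annotated gene on the same strand, so part of its count is uncertain. Squalene synthase (Fdft1) had 146, 82.0 and 148 CPM with DMSO and 139, 137 and 125 CPM with both inhibitors. A1129, the lowest line with DMSO, thus stood level with A1005 under both inhibitors. The Fdft1 exons share 18.3% of their length with Ctsb on the opposite strand. Whether the counting used strand is not given in the sources used here. Sqle, a slow step of the pathway, had 568, 245 and 283 CPM with DMSO and 514, 398 and 208 CPM with the combination. Lanosterol synthase (Lss) had 129.7, 91.9 and 127 CPM with DMSO and 66.5, 124 and 51.0 CPM with both inhibitors. Fdps, Fdft1, Sqle and Lss were all called for the difference between lines, with A1129 minus A1471 differences of 1.33, 0.87, 1.06 and 1.53 on the log2 scale.

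Among the enzymes that turn lanosterol into cholesterol, the lanosterol demethylase Cyp51 had 258, 214 and 288 CPM with DMSO and 203, 295 and 155 CPM with the combination. The methylsterol oxidase Msmo1 was nearly equal in the lines with DMSO (234, 237 and 227 CPM) and spread to 159, 268 and 88.6 CPM with both inhibitors. Among the sterol enzymes, only Idi1 had a larger difference between A1129 and A1471 than Tm7sf2. For Tm7sf2 it was 1.71 ± 0.22 on the log2 scale (edgeR adjusted p = 0.00607). Tm7sf2 had 15.2, 19.5 and 11.4 CPM with DMSO and 21.8, 39.4 and 6.19 CPM with the combination. It shares 12.1% of its exon length with Vps51 on the same strand. The sterol dehydrogenase Nsdhl had 123, 88.1 and 119.9 CPM with DMSO and 117, 174 and 85.3 CPM with the combination. The ketoreductase Hsd17b7 had 68.7, 76.4 and 83.1 CPM with DMSO and 73.6, 93.5 and 60.5 CPM with the combination. The lathosterol oxidase Sc5d had 168, 110 and 136 CPM with DMSO and 147, 135 and 75.4 CPM with the combination. The reductase Dhcr7, which makes cholesterol from 7-dehydrocholesterol, had 158, 84.8 and 83.6 CPM with DMSO and 121, 91.2 and 36.3 CPM with the combination. Within this late stretch of the pathway Ebp was the exception, with log2 changes of 0.93, 1.32 and 1.08 in the 3 lines. The test for a line difference gave Ebp an edgeR adjusted p of 0.0741.

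Fatty acid members differed in the size of the gap between lines and in whether it was called. Scd1 had 608, 399.8 and 474 CPM with DMSO and 778, 1261 and 347 CPM with the combination, a difference between A1129 and A1471 of 1.86 ± 0.26 on the log2 scale (edgeR adjusted p = 0.00794). Scd2 had 1152, 1893 and 1799 CPM with DMSO and 775, 4269 and 1047 CPM with both inhibitors, so the most abundant member was higher in A1129 and lower in both other lines (difference 1.68 ± 0.20; edgeR adjusted p = 0.00446). Acss2 had 82.9, 19.2 and 17.7 CPM with DMSO and 62.6, 65.2 and 14.6 CPM with the combination, which brought A1129 to the level of A1005 (difference 1.73 ± 0.23; edgeR adjusted p = 0.00704). Elovl6 was also called, with log2 changes against DMSO of -0.47 in A1129 and -2.13 in A1471.

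For the enzymes of the core route from citrate to palmitate the gap was smaller and was not called. Acly had 617, 539 and 668 CPM with DMSO and 505, 623 and 525 CPM with both inhibitors, with a difference between A1129 and A1471 of 0.39 ± 0.18 (edgeR adjusted p = 0.225). Acaca, which makes malonyl-CoA, had 83.5, 166 and 351 CPM with DMSO and 74.4, 160.4 and 181 CPM with both inhibitors. Its difference was 0.65 ± 0.21 (edgeR adjusted p = 0.0961). Fasn had 596, 1415 and 1512 CPM with DMSO and 478, 1630.1 and 905 CPM with both inhibitors. Its difference was 0.69 ± 0.27 (edgeR adjusted p = 0.157). The delta-6 desaturase Fads2 had 219.6, 228 and 205 CPM with DMSO and 216, 281 and 135 CPM with both inhibitors. It was called for A1129 against A1471 (0.72 ± 0.18; edgeR adjusted p = 0.0466) but not over the 3 lines together (edgeR adjusted p = 0.0562).

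Among the regulators, Srebf1, which encodes SREBP-1, had 164, 144 and 192 CPM with DMSO and 177, 207 and 93.1 CPM with the combination, with a difference between A1129 and A1471 of 1.33 ± 0.23 on the log2 scale (edgeR adjusted p = 0.0132). Srebf2, which encodes SREBP-2, had 586, 258 and 511 CPM with DMSO and 443, 282 and 379.9 CPM with the combination. Its difference between A1129 and A1471 of 0.43 ± 0.17 was not called (edgeR adjusted p = 0.150). Insig1, a sterol-dependent anchor of the SREBP complex that is itself an SREBP target, had nearly equal levels of 157, 137 and 160.1 CPM with DMSO and 161, 305 and 97.8 CPM with both inhibitors (difference 1.63 ± 0.20; edgeR adjusted p = 0.0059). Stard4, a cytosolic cholesterol carrier, had 177, 125 and 194 CPM with DMSO and 136, 169 and 101 CPM with the combination. Lpin1, a phosphatidate phosphatase, had 51.6, 32.8 and 64.2 CPM with DMSO, 38.8, 25.8 and 34.0 CPM with PD173074, and 46.8, 56.3 and 46.9 CPM with the combination. Against PD173074 alone it was higher with the combination in the blocked fit, by 0.65 ± 0.21 on the log2 scale (edgeR adjusted p = 0.0319).

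Crizotinib alone left the members close to DMSO. No member and no gene of the table was called against DMSO in edgeR, without the block (0% of all genes) or with it (0%). DESeq2 and limma-voom called 0 members, beside 0.00356% and 0% of the genes they tested. At an unadjusted p under 0.05, edgeR had 0 members in both fits, beside 18 of the 13836 tested genes without the block and 258 with it. The log2 changes by line ranged from -0.24 to 0.32 in A1005, from -0.24 to 0.23 in A1129 and from -0.36 to 0.07 in A1471. In A1471, 26 of 32 members were lower (median -0.15), beside 7299 of all 13836 tested genes. In A1005 20 of 32 were lower (median -0.01), and in A1129 21 of 32 (median -0.03), beside 6527 and 6996 of all tested genes.

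PD173074 alone gave 0 called members in edgeR without the block (0% of all genes) and 0 with it (2.14%). At an unadjusted p under 0.05 there were 0 and 2 members, beside 307 and 2175 of all tested genes. DESeq2 called 0 members, beside 0.213% of the genes it tested. In A1471, 30 of 32 members were lower with PD173074 than with DMSO, with a median log2 change of -0.34, the exceptions being Mvk and Ebp. Of all 13836 tested genes, 6663 were lower in that library (median 0.00). In A1005 20 of 32 members were lower (median -0.04), beside 6604 of all tested genes. In A1129 20 of 32 members were higher (median 0.04), beside 6797 of all tested genes. For Srebf1 the 3 PD173074 libraries had 177, 142 and 137 CPM, and for Insig1 130, 133 and 105 CPM. Ebp was higher with PD173074 in all 3 lines, by 0.35, 0.38 and 0.41 on the log2 scale (edgeR adjusted p = 0.0864 with the block).

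Against the single inhibitors, which share the combination libraries with the comparison above, the combination differed from Crizotinib in 2 of 32 members without the block (Ebp and Elovl6; 13.2% of all genes) and 5 with it (also Idi1, Mvk and Fads1; 53.4%). It differed from PD173074 in 0 members without the block (4.77% of all genes) and 4 with it (Ebp, Elovl6, Fads1 and Lpin1; 39.8%). In the latter comparison without the block, 3 members had an unadjusted p under 0.05 in edgeR, beside 2612 of all tested genes. DESeq2 called 0 members, beside 11% of the genes it tested.

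With the combination, the medians of the sterol and the fatty acid enzymes had the same sign as each other within each line. The median log2 change was -0.27 for the 18 sterol enzymes and -0.29 for the 9 fatty acid enzymes in A1005, 0.46 and 0.30 in A1129, and -0.81 and -0.60 in A1471. The difference between both medians was thus 0.02, 0.16 and -0.22 in the 3 lines, with no common sign. In the fit over lines the medians were -0.12 and -0.05 against DMSO, beside 0.02 for all tested genes. Summed over genes, which weights the abundant members, sterol enzymes had 3094, 1927 and 2534 CPM with DMSO and 2508, 2843 and 1497 CPM with the combination, and fatty acid enzymes had 3773, 5114 and 5581 CPM and then 3228, 8803 and 3468 CPM. Both sums were thus higher in A1129 and lower in A1005 and A1471. Over the 3 lines the sum of the sterol enzymes was 2518 ± 584 CPM (SD, n = 3) with DMSO and 2283 ± 701 with the combination, and that of the fatty acid enzymes 4823 ± 939 and 5166 ± 3152, so the groups did not separate. In A1129 the log2 changes ran from -0.47 (Elovl6) to 1.76 (Acss2) among fatty acid enzymes and from -0.10 (Idi1) to 1.32 (Ebp) among sterol enzymes. In A1471 they ran from -2.13 (Elovl6) to 0.21 (Fads1) and from -2.14 (Idi1) to 1.08 (Ebp), so neither class had the wider spread in both lines.

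**Figure D5:**
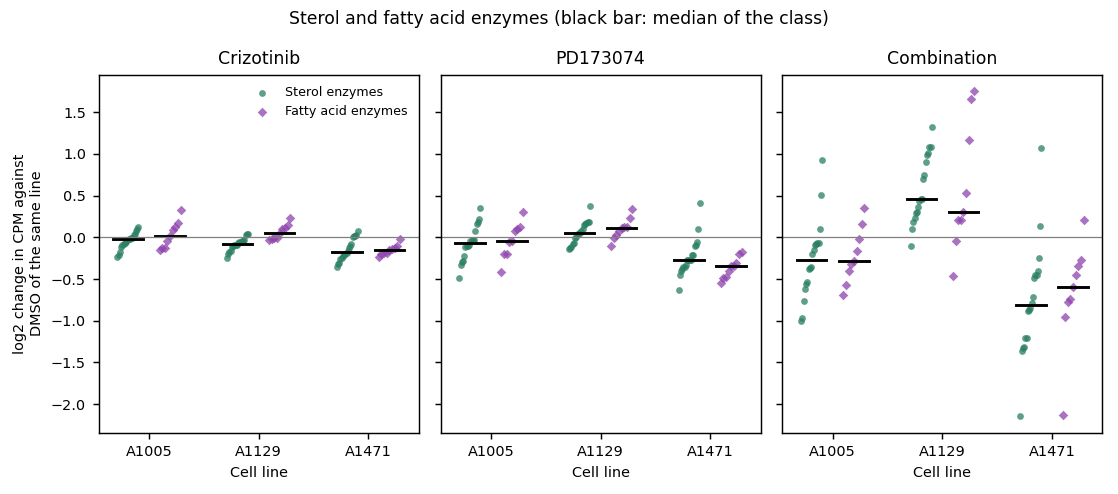
Log2 change in CPM against DMSO of the same line for the 18 sterol enzymes (circles) and 9 fatty acid enzymes (diamonds), by line, for Crizotinib, PD173074 and the combination, with the median of each class as a black bar. In the combination panel the medians of both classes lie above 0 in A1129 (0.46 and 0.30) and below 0 in A1471 (-0.81 and -0.60), with single enzymes on the other side.

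Genes around these pathways were examined in the same fit. Of 9 genes of fatty acid oxidation that were tested, 2 rose and 0 fell with the combination in edgeR without the block (7 and 0 with it). Of all tested genes, 6.10% rose and 8.28% fell without the block, and 28.6% and 26.2% with it. At an unadjusted p under 0.05, 3 were higher and 0 lower, and DESeq2 called 3 and 0. Of all 13836 tested genes, 4002 had such a p in either direction, and DESeq2 called 20.6% of the genes it tested. The list had a median log2 fold change of 0.50, beside 0.02 for all tested genes. The medium-chain acyl-CoA dehydrogenase Acadm had 73.6, 53.3 and 48.6 CPM with DMSO and 236, 211 and 155 CPM with both inhibitors, which is 1.78 ± 0.29 higher on the log2 scale (edgeR adjusted p = 0.00373). Acadvl, its very long-chain counterpart, rose by 0.50 ± 0.12 (edgeR adjusted p = 0.0217). All 3 lines had higher levels of both genes, including A1471, in which 29 of 32 synthesis members were lower. Of 7 tested genes of LXR and sterol efflux, 2 rose and 0 fell in edgeR (6 and 1 with the block), also by an unadjusted p under 0.05 and by DESeq2. The cholesterol exporter Abca1, a target of the oxysterol receptor LXR, had 13.2, 5.92 and 1.73 CPM with DMSO and 45.9, 76.3 and 20.7 CPM with the combination (log2 fold change 2.78 ± 0.82; edgeR adjusted p = 0.0491). Mylip, an LXR target that degrades lipoprotein receptors, had 16.9, 11.4 and 11.7 CPM with DMSO. With the combination it had 78.3, 32.02 and 68.1 CPM (2.16 ± 0.48, edgeR adjusted p = 0.0169).

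Of 11 genes of the isoprenoid side branches, 0 rose and 1 fell with the combination in edgeR (1 and 3 with the block). At an unadjusted p under 0.05, 0 were higher and 2 lower, and DESeq2 called 0 and 1. Over all genes these were 4002 of 13836 in edgeR and 20.6% in DESeq2, in either direction. The gene that fell was Pdss1, which builds the side chain of coenzyme Q, with 13.3, 23.3 and 21.8 CPM with DMSO and 6.17, 3.76 and 3.47 CPM with the combination (log2 fold change -2.12 ± 0.30; edgeR adjusted p = 0.00212). Of 9 tested genes that control SREBP processing or the turnover of its targets, edgeR called 0 without the block (1 at an unadjusted p under 0.05) and DESeq2 called 0, while with the block 3 rose and 2 fell in edgeR, a share of 55.6% beside 54.8% of all genes. Of 19 genes of fatty acid supply, activation and esterification, edgeR called 0 without the block (1 at an unadjusted p under 0.05) and DESeq2 called 0, while 1 rose and 5 fell with the block in edgeR, a share of 31.6%.

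The regions before the genes were read for 4 members because they stand for the patterns above: Hmgcs1 (higher in A1129, lower in A1471), Ebp (higher in all lines), and Idi1 and Elovl6 (lowest in A1471). The sequences are from RefSeq on build GRCm38.p6, run from 250 bases before to 50 bases after the gene start on the strand of the gene, and show in capitals the letters CCAAT on either strand and TCACNCCAC, a form of the sterol regulatory element. Hmgcs1 is at chr13:119690101-119690400 (plus strand), Ebp at chrX:8193463-8193762 (minus), Idi1 at chr13:8885356-8885655 (plus) and Elovl6 at chr3:129532136-129532435 (plus).
Hmgcs1: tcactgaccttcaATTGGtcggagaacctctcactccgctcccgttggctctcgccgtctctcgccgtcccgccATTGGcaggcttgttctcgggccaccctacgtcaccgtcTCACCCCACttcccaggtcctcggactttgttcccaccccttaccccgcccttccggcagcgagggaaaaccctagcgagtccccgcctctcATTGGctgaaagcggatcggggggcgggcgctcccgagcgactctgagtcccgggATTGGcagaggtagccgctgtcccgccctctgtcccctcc
Ebp: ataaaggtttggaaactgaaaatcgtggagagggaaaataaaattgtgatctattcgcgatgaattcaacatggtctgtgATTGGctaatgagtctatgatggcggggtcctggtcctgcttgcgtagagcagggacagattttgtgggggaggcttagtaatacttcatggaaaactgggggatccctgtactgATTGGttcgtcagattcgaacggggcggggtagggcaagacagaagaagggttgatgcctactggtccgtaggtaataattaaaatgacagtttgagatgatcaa
Idi1: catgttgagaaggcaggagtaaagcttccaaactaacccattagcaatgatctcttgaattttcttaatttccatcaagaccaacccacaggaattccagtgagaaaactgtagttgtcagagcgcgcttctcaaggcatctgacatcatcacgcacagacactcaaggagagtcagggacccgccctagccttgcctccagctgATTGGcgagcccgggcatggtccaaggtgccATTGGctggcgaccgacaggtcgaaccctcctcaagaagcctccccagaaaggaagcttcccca
Elovl6: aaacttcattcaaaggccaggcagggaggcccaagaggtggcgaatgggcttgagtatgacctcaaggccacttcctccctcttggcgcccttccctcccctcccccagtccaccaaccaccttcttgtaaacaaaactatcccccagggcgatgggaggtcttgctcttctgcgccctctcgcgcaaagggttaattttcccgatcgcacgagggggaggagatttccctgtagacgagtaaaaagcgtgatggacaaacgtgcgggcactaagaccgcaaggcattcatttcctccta
The Hmgcs1 window held the sterol regulatory element as TCACCCCAC, which began 137 bases before the start, and 4 CCAAT matches. Ebp held 2 CCAAT matches, which began 170 and 55 bases before the start, Idi1 held 2, at 45 and 14 bases, and Elovl6 held neither set of letters. Of the 32 members, 25 had a RefSeq window, and those of Fdft1, Fdps, Fads1, Scd1, Scd2, Sqle and Stard4 were not used here. At least 1 CCAAT match was present in 20 of 25 members (80%), compared with 41.1% of all genes with a window and 43.6% of the tested ones. The 20 were 14 sterol enzymes, 3 fatty acid enzymes and 3 regulators. Without a match were Acat2 among sterol enzymes, Acaca, Elovl6 and Fads2 among fatty acid enzymes, and Lpin1 among regulators. The GC box GGGCGG was present in 20 of 25 members (80%), compared with 38.2% of all and 69.4% of tested genes. The E-box CACGTG was present in 4 members (16%; Dhcr7, Hsd17b7, Insig1 and Sc5d), compared with 8.09% and 11.7%. TCACNCCAC was present in Hmgcs1 alone (4% of members), compared with 1.44% of all and 1.37% of tested genes. These matches describe letters in short windows and say nothing of binding.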

How the data were processed

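The authors sequenced total RNA of the tumourspheres on a NextSeq500 instrument. Per the labels they converted the reads with bcl2fastq, aligned them by STAR (genome build mm10) and counted them with HTSeq, and they deposited raw counts of reads per Ensembl gene, without normalization. Tool versions, the annotation release and the use of strand are not given in the sources used here. Members and gene lists were chosen with earlier results of these data known, so the counts over them are descriptions.

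Treatment and line were taken from the sample labels. Low genes were removed by filterByExpr (at least 10 counts, total at least 15) and libraries were scaled by TMM. Tests used the quasi-likelihood F statistic from edgeR 4.0.16 (R 4.3.3) over all 12 libraries, with Benjamini-Hochberg adjustment over all 13836 tested genes and a threshold of 0.05. The fit had no block, because the study's methods state an unpaired analysis. The cell line as a block was an alternative. Libraries of the same line pair across treatments by design, and their deviations from the treatment means correlated at 0.87 on average (18 pairs), compared with -0.42 between lines (36 pairs). No pair of libraries held identical counts. Whether a line was cultured separately for each treatment is not stated. Log2 CPM used a prior count of 2. The change of each line with the combination was tested in a further edgeR fit added after the values were seen. In that fit the reference of a line is its DMSO, Crizotinib and PD173074 libraries together.

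Other alternatives were DESeq2 1.42.0, voom of limma 3.58.1, DESeq2's size factors, total counts alone, other filters on low counts, leaving out each line, a fit of only those libraries that a comparison concerns, and a size threshold of 1.5 on the log2 scale. All 32 members were described, and of the other pathway lists the genes past the threshold in the unpaired comparison of the combination with DMSO. The markers Fn1, Twist1, Sparc and Zeb1 were named after their values were seen. The fits were run on simulated counts, in which the lines did not differ in their response to the single inhibitors. The fit for line differences takes its spread from such differences, so the simulation cannot show how often it calls falsely here. Depth covers counting error only, since no molecular identifiers mark separate molecules. Exon lengths and overlaps came from GENCODE M21, which holds 55480 of the 55573 genes and all 32 members, and 11 members share exon sequence with another gene. Promoter windows came from RefSeq (GRCm38.p6).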

Additional observations from a re-analysis of the deposited data

Results flagged for a closer look

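The change with the combination differed between the 3 lines in 25 of the 32 members and in 17.2% of all tested genes. This was by edgeR's test of the line terms, which was added after the values were seen. It sets the combination against the DMSO, Crizotinib and PD173074 libraries of a line together. Among the members tested for A1129 against A1471, the difference in log2 change was 1.96 for Idi1 and 1.71 for Tm7sf2 in the sterol pathway, 1.86 for Scd1 and 1.73 for Acss2 among the fatty acid enzymes, and 1.63 for Insig1 and 1.33 for Srebf1 among the regulators. In each case A1129 had the higher value.

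Ebp with both inhibitors exceeded the sum of the single inhibitor effects by 0.94 on the log2 scale in edgeR's blocked fit. It was the only one of the 32 members for which that departure was called, beside 16.2% of all tested genes. Without the block Ebp was not called (edgeR adjusted p = 0.436), beside 0.918% of all tested genes.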

How the results depend on the processing

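Members called with the cell line as a block numbered 4 for the combination against DMSO (54.8% of all genes) and 5 against Crizotinib (53.4%). They numbered 4 against PD173074 (39.8% of all genes) and 1 for the departure from additivity (16.2%). Without a filter on low counts 1 member was called against DMSO (4.07% of all genes). With only the groups compared, 0 were called against DMSO (4.62% of all genes) and 1 against Crizotinib (4.79%), and at a size threshold of 1.5 on the log2 scale there were 0 in both (5.74% and 5.36%). Leaving out each line gave 0 to 1 against DMSO (0.856% to 14.9% of all genes) and 0 to 1 against Crizotinib (0.777% to 13.5%). With the block it gave 3 to 16 against DMSO (36.8% to 50.3% of all genes).

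Several members changed sign in the combination against DMSO. Some were near 0 in the main fit. Further from 0 were Scd2 (0.33), Insig1 (0.31), Stard4 (-0.29), Acss2 (0.25), Mvd (0.24), Fasn (-0.23), Cyp51 (-0.22), Sc5d (-0.21) and Nsdhl (0.18). Leaving out each line gave log2 fold changes of -0.54 to 0.25 for Hmgcs1, -0.21 to 0.51 for Mvd, -0.15 to 0.29 for Fdft1, -0.24 to 0.20 for Sqle, -0.60 to 0.087 for Cyp51, -0.26 to 0.48 for Nsdhl, -0.17 to 0.22 for Hsd17b7, -0.45 to 0.031 for Sc5d, -0.38 to 1.11 for Acss2, -0.59 to 0.095 for Fasn, -0.68 to 0.75 for Scd2, -0.27 to 0.17 for Fads2, -0.39 to 0.34 for Srebf1, -0.29 to 0.68 for Insig1, -0.64 to 0.026 for Stard4 and -0.30 to 0.30 for Lpin1. For Ebp the range was 1.01 to 1.20 and for Elovl6 -1.36 to -0.58. Total counts gave 0.026 for Hmgcs1, 0.047 for Hsd17b7 and 0.0041 for Fads2. At least 10 counts in every library gave 0.0050 for Hmgcs1 and 0.037 for Hsd17b7. DESeq2 gave 0.023 and its size factors 0.021 for Hsd17b7, limma-voom gave -0.060 for Scd2, and no filter gave -0.010 for Lpin1. The sterol minus fatty acid median, with no test, was -0.078 to 0.059 for PD173074 and -0.12 to 0.015 for Crizotinib when each line was left out. The cause was not tested. Of the members' log2 fold changes under these alternatives, 316 kept direction and side of the threshold, 26 changed direction, 8 lost their call and 2 gained one. The count of 25 members that differ between lines was 18 to 31 under alternatives, beside 2.37% to 43.9% of all genes. With 1 library per line and treatment, no change within a line has a replicate.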
